A study of Ambystoma mexicanum with 9 samples.

Results

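The 6 genes GFAP, VIM, SLC1A3, MSI1, LHX2 and CDH2 are used as markers of ependymoglia, radial glia-like cells whose bodies border the central canal of the cord in the axolotl, and of neural stem cells. They were chosen by name, and every probe set whose only gene symbol in the annotation of the array was one of them was taken. This gave 10 of the 20035 probe sets tested, of which 10951 had 1 symbol. VIM had 3 probe sets, MSI1 and CDH2 had 2 each, and GFAP, SLC1A3 and LHX2 had 1 each.

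The series comprised 9 axolotl Affymetrix arrays in 3 groups of 3. The axolotl is a salamander whose cord grows back after injury. For each array, labelling started from 150 ng of total RNA of 10 pooled animals of 2 to 3 cm. The 0dpi arrays held uninjured cord, with no injection named for it. The 1dpi arrays held tissue from the site of injury 1 day after the cord was damaged, and the 1dpiT arrays held the same kind of tissue from animals that received ivermectin, which opens chloride channels gated by glycine. The series text says that ivermectin or water was pressed into the central canal and that a piece of cord was then cut out, while the sample labels call the 1dpi injury a crush and name no injury for 1dpiT. The labels give no strain, sex or age of the animals. The tissue was cord with some of the tissue around it.

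In the axolotl, ependymoglia persist through life and give rise to the neurons and glia that rebuild the cord and its central canal. GFAP and VIM form the intermediate filaments of these cells, SLC1A3 is the glutamate transporter also called GLAST, and CDH2 is N-cadherin, the adhesion protein of the adherens junctions that hold neuroepithelial cells together. MSI1 is an RNA-binding protein of neural progenitors, and LHX2 is a LIM homeodomain transcription factor. None of the 6 is made by these cells alone. VIM is also made by connective tissue, vessels and leukocytes, CDH2 by neurons and muscle, GFAP by some Schwann cells, and LHX2 by dorsal interneurons of the vertebrate cord. In mammals a cord injury is followed by a lasting rise of GFAP in astrocytes at the lesion.

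Values are log2 signals made with robust multi-array average (RMA), so 1 unit is a factor of 2 and each value is relative to the other probe sets of its array. Differences between groups are taken here for a single probe set. Sums of signals, shares of a sum and ranks by brightness do set different probe sets side by side. So does the comparison with the negative controls. A change was called where the adjusted p of limma, over all 20035 probe sets, was below 0.05. Array medians lay between 5.84 and 5.89, and arrays of a group correlated across probe sets at 0.997 to 0.999. The bacterial poly-A transcripts added before labelling did not keep level. Their mean was 7.54 ± 0.03 (SD, n = 3 arrays) in 0dpi, 8.08 ± 0.04 in 1dpi and 7.43 ± 0.05 in 1dpiT, so arrays set to equal poly-A signal would have all log2 differences moved by -0.55 for 1dpi against 0dpi, by 0.65 for 1dpiT against 1dpi and by 0.10 for 1dpiT against 0dpi. The hybridization controls, added after labelling, differed by 0.16, -0.02 and 0.13 in the same order. Centring on them gave each of the 10 probe sets an SE of 0.14 in limma, against 0.05 to 0.11 as deposited. A call could thus end on that scale with little change of the difference. Where such a scaling turned a direction or ended a call of the 6 genes, this is given with the result. In pooled tissue, fewer cells of a type and less RNA per cell cannot be told apart.

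As deposited, the markers did not move as 1 group. One day after injury GFAP, SLC1A3 and VIM were higher than in uninjured cord, MSI1 and LHX2 were level or lower, and CDH2 had no call. With ivermectin VIM lay back near its uninjured level, and GFAP and SLC1A3 lay between the uninjured and the injured level. Both CDH2 and both MSI1 probe sets had their highest mean of the 3 groups in 1dpiT. Only 1 of these 4, of CDH2, was called higher than in 0dpi, and the dimmer CDH2 probe set was near background in 0dpi and 1dpi. For 1dpi against 0dpi, 5 of the 10 probe sets were called higher and 2 lower, where 24.7% of all probe sets were called higher and 28.2% lower. For 1dpiT against 1dpi, 5 were called higher and 5 lower, against 29.0% and 25.0% of all probe sets. For 1dpiT against 0dpi, 3 were called higher and 0 lower, against 2.26% and 3.34% of all probe sets, while at an unadjusted p below 0.05 in limma 6 were higher and 1 lower. Values of both groups were fully separate for 8, 10 and 6 of the 10 probe sets in the 3 comparisons, where the groups did not overlap for 59.4%, 60.4% and 23.1% of all probe sets. The median log2 difference of the 10 was 0.26, 0.01 and 0.24, and that of all probe sets was -0.00, -0.00 and 0.01. As deposited, none of the 10 reached a 2-fold difference in any comparison, and 7.12%, 7.80% and 0.160% of all probe sets did. With arrays set to equal poly-A signal, all 6 genes, by their brightest probe sets, were called higher in 1dpiT than in 1dpi. So were 7589 of all 8639 genes. GFAP and SLC1A3 were then highest in 1dpiT. In 1dpi against 0dpi, 1 of the 6 was called higher and 3 lower on that scale, where 499 of all 8639 genes were higher and 7338 lower.

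**Figure D1:**
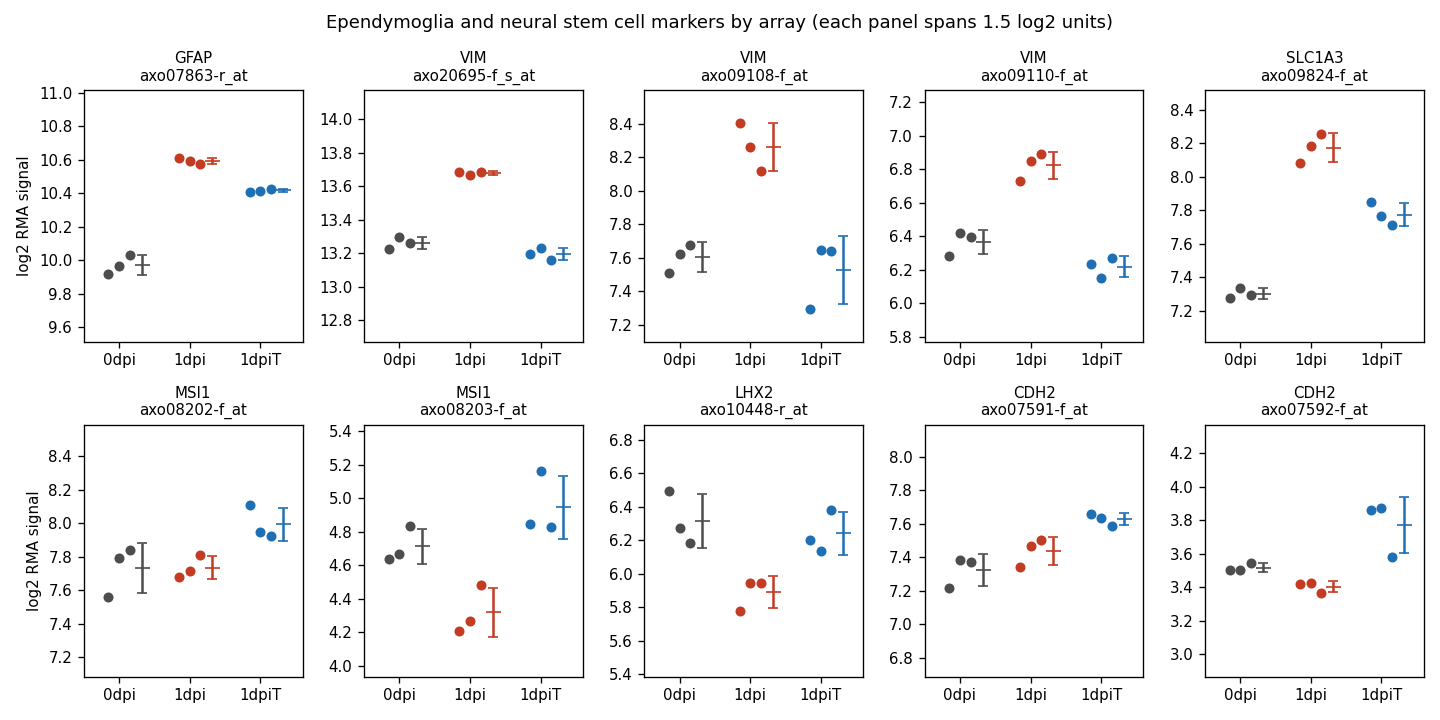
Log2 RMA signal (vertical axis) of each of the 10 probe sets in the 3 arrays of 0dpi, 1dpi and 1dpiT (points), with the group mean and SD (dash and bar, n = 3). As deposited, GFAP and SLC1A3 have 3 separate levels in the order 0dpi, 1dpiT, 1dpi, and the 3 VIM probe sets are high only in 1dpi. Both CDH2 probe sets have their highest mean in 1dpiT, but the dimmer is near background in 0dpi and 1dpi. With arrays set to equal poly-A signal GFAP and SLC1A3 would be higher in 1dpiT than in 1dpi. VIM would then not be called higher in 1dpi than in 0dpi.

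GFAP, the intermediate filament protein that defines astroglia, was at 9.92, 9.97 and 10.03 in the 0dpi arrays, at 10.61, 10.59 and 10.58 in 1dpi and at 10.41, 10.42 and 10.43 in 1dpiT. The 3 groups did not overlap, and the spread was smallest in 1dpiT. GFAP was 0.62 ± 0.05 higher in 1dpi than in 0dpi (SE, n = 3 arrays per group, 1.54-fold, adjusted p = 1.7e-06), and 0.07 higher and not called with arrays set to equal poly-A signal. Of all probe sets, 8.07% had a larger rise. In 1dpiT it fell by 0.18 ± 0.05 from 1dpi (1.13-fold, adjusted p = 0.0095), a direction that turned to 0.47 higher on the poly-A scale and a call that was lost on that of the hybridization controls (-0.15 ± 0.14, adjusted p = 0.469). Against 0dpi it was 0.44 ± 0.05 higher in 1dpiT (1.36-fold, adjusted p = 0.000444), 0.55 higher on the poly-A scale and 0.31 higher, with no call, on the scale of the hybridization controls. In this last comparison 0.599% of all probe sets had a larger rise.

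SLC1A3 clears glutamate from around neurons and is a marker shared by radial glia and astrocytes. Its values were 7.28, 7.34 and 7.30 in 0dpi, 8.08, 8.18 and 8.25 in 1dpi and 7.85, 7.76 and 7.71 in 1dpiT. Again no array of a group reached the values of another group, in the same order as GFAP. SLC1A3 was 0.87 ± 0.06 higher in 1dpi than in 0dpi (1.83-fold, adjusted p = 7.03e-07), the largest difference among the 10 probe sets, and it was the only 1 of them still called higher on the poly-A scale (0.33). In 1dpiT it fell by 0.40 ± 0.06 from 1dpi (1.32-fold, adjusted p = 0.000201), which turned to 0.25 higher on the poly-A scale. It was 0.47 ± 0.06 higher in 1dpiT than in 0dpi (1.39-fold, adjusted p = 0.00126), with 0.474% of all probe sets rising more, 0.57 higher on the poly-A scale and 0.34 higher, with no call, on that of the hybridization controls. All 3 calls of GFAP and all 3 of SLC1A3 held when any 1 array was left out.

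VIM forms the vimentin filaments of radial glia and of many mesenchymal cells. Its brightest probe set, axo20695-f_s_at, was at 13.23, 13.30 and 13.26 in 0dpi, at 13.69, 13.67 and 13.69 in 1dpi and at 13.20, 13.23 and 13.16 in 1dpiT. The 1dpi arrays stood above all 6 others, and the other two groups overlapped. This probe set outshone 99.3% of all probe sets, and its suffix marks probes that match more than 1 transcript. It was 0.42 ± 0.05 higher in 1dpi than in 0dpi (1.34-fold, adjusted p = 2.51e-05) and fell by 0.48 ± 0.05 from 1dpi to 1dpiT (1.40-fold, adjusted p = 7.61e-06), while on the poly-A scale these differences were -0.13, with no call, and 0.16, and on that of the hybridization controls the rise was 0.26 with no call (adjusted p = 0.133). For 1dpiT against 0dpi the difference was -0.07 with a 95% interval of -0.17 to 0.04, and 0.04 on the poly-A scale.

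The other VIM probe sets followed the same order of groups. The values of axo09108-f_at were 7.51, 7.63 and 7.68 in 0dpi, 8.40, 8.26 and 8.12 in 1dpi and 7.29, 7.65 and 7.64 in 1dpiT. Its first 1dpiT array lay below the other two, and its SE was among the widest of the 10 probe sets. The values of axo09110-f_at were 6.28, 6.42 and 6.39 in 0dpi, 6.73, 6.85 and 6.89 in 1dpi and 6.24, 6.15 and 6.27 in 1dpiT, where all 1dpiT arrays lay just under those of 0dpi. The rises in 1dpi over 0dpi were 0.66 ± 0.11 and 0.46 ± 0.06, and the falls in 1dpiT against 1dpi were -0.73 ± 0.11 and -0.60 ± 0.06, all 4 called. The rise of axo09110-f_at was not called on the scale of the hybridization controls (0.30, adjusted p = 0.0772). On the poly-A scale none of the 4 was called, at 0.11 and -0.09 for the first comparison and -0.09 and 0.04 for the second. Against 0dpi the 1dpiT arrays differed by -0.08 (95% interval -0.31 to 0.16, and 0.03 on the poly-A scale) and -0.15 (-0.29 to -0.01, unadjusted p below 0.05 but adjusted p = 0.235).

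**Figure D2:**
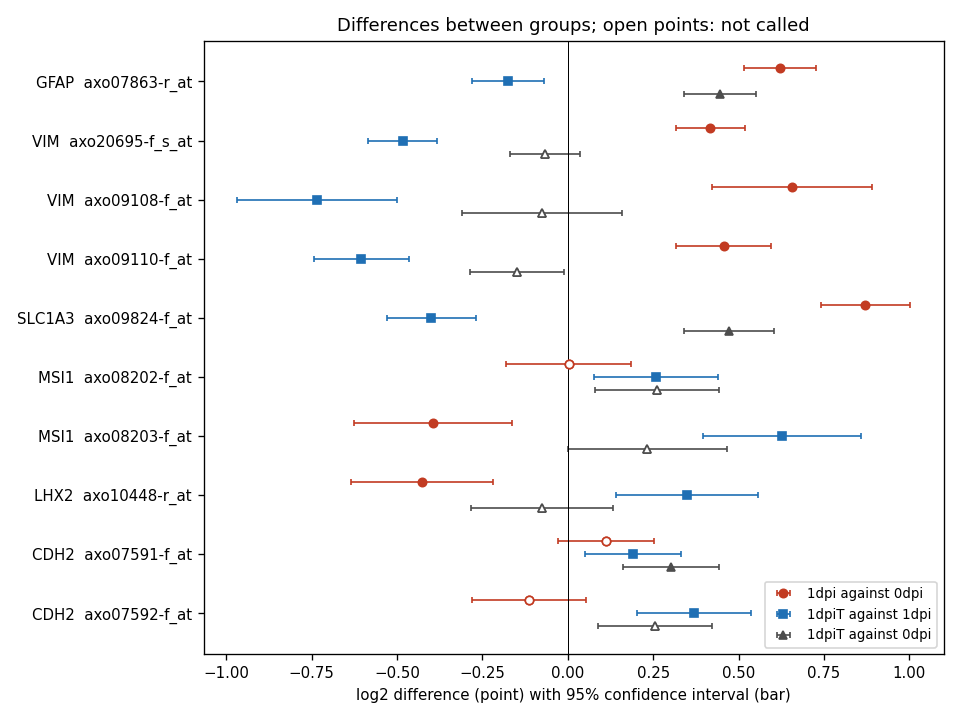
Log2 difference (horizontal axis) of each probe set in the 3 comparisons, with its 95% confidence interval as a bar, filled where called and open where not. For 1dpiT against 0dpi (triangles) GFAP, SLC1A3 and CDH2 axo07591-f_at are filled, at 0.44, 0.47 and 0.30, while the 3 VIM probe sets lie between -0.15 and -0.07 as deposited and between -0.05 and 0.04 with arrays set to equal poly-A signal.

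CDH2 binds neighbouring cells to each other through adherens junctions. Its brighter probe set, axo07591-f_at, was at 7.22, 7.38 and 7.37 in 0dpi, at 7.34, 7.47 and 7.50 in 1dpi and at 7.66, 7.63 and 7.59 in 1dpiT. The 0dpi and 1dpi arrays overlapped, and the 1dpiT arrays stood above both. It was 0.30 ± 0.06 higher in 1dpiT than in 0dpi (1.23-fold, adjusted p = 0.0211) and 0.19 ± 0.06 higher than in 1dpi (1.14-fold, adjusted p = 0.0270). On the scale of the hybridization controls neither was called (0.17 ± 0.14, adjusted p = 0.637, and 0.21 ± 0.14, adjusted p = 0.261). The call against 0dpi did not hold when 0dpi replicate 1 (adjusted p = 0.0606), 1dpiT replicate 1 (0.0686) or 1dpiT replicate 2 (0.0748) was left out, and the call against 1dpi ended without 1dpi replicate 1 (0.0952), 1dpiT replicate 1 (0.0766) or 1dpiT replicate 2 (0.0666). For 1dpi against 0dpi the difference was 0.11 (95% interval -0.03 to 0.25), with no call, and it turned to -0.43, a called fall, on the poly-A scale and to -0.04 on that of the hybridization controls.

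The dimmer CDH2 probe set, axo07592-f_at, was at 3.50, 3.50 and 3.55 in 0dpi, 3.42, 3.42 and 3.36 in 1dpi and 3.86, 3.87 and 3.58 in 1dpiT. All 1dpi arrays lay under 3.47, the mean of the brightest negative control, so the 1dpi values are at background. The 1dpiT arrays again stood highest. Set against 3.47 in place of the 1dpi values they were at least 1.23-fold higher than 1dpi (adjusted p = 0.00178 on the measured values), so its measured difference is no size of the change, and without it 4 of the 10 probe sets were called higher in 1dpiT against 1dpi. Against 0dpi they were 0.26 ± 0.07 higher with no call (adjusted p = 0.0863), which became a call without 1dpiT replicate 3 (adjusted p = 0.00727). The 0dpi values, at 3.50 to 3.55, lay close above 3.47, so the size of this difference is uncertain as well.

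MSI1, or Musashi-1, represses translation of messages such as that of the Notch inhibitor NUMB in neural progenitors. Its brighter probe set, axo08202-f_at, was at 7.56, 7.79 and 7.84 in 0dpi, 7.68, 7.72 and 7.81 in 1dpi and 8.11, 7.95 and 7.92 in 1dpiT. The 1dpi arrays lay inside the range of 0dpi, and all 1dpiT arrays lay above both groups. The difference between 1dpi and 0dpi was 0.00 with a 95% interval of -0.18 to 0.18. It was -0.54, a called fall, on the poly-A scale and -0.15, with no call, on that of the hybridization controls. In 1dpiT it was 0.26 ± 0.08 higher than in 1dpi (1.20-fold, adjusted p = 0.0215), but with 1dpi replicate 1 (0.0683), 1dpi replicate 2 (0.0579) or 1dpiT replicate 1 (0.0826) removed the adjusted p missed the threshold, as it did on the scale of the hybridization controls (0.28, adjusted p = 0.110). Against 0dpi the 1dpiT arrays were also 0.26 ± 0.08 higher, with no call (adjusted p = 0.108), and this was called with variance trend and robust options (0.0351) and on the poly-A scale (0.0315).

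The second MSI1 probe set, axo08203-f_at, did not follow the first in the injured cord. It was at 4.64, 4.67 and 4.84 in 0dpi, 4.21, 4.27 and 4.48 in 1dpi and 4.85, 5.16 and 4.83 in 1dpiT. Its 1dpi arrays stood below all others, and 1dpiT overlapped 0dpi. It fell by 0.39 ± 0.10 from 0dpi to 1dpi (1.31-fold, adjusted p = 0.00887) and was 0.63 ± 0.10 higher in 1dpiT than in 1dpi (1.54-fold, adjusted p = 0.000475). Against 0dpi the 1dpiT arrays were 0.23 ± 0.10 higher with no call (adjusted p = 0.27).

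LHX2 acts in neural progenitors and in the choice of neuron types. Its probe set was at 6.49, 6.27 and 6.18 in 0dpi, 5.78, 5.95 and 5.95 in 1dpi and 6.20, 6.13 and 6.38 in 1dpiT. The 1dpi arrays were the lowest, and 0dpi and 1dpiT overlapped. LHX2 fell by 0.43 ± 0.09 from 0dpi to 1dpi (1.34-fold, adjusted p = 0.003) and was 0.35 ± 0.09 higher in 1dpiT than in 1dpi (1.27-fold, adjusted p = 0.00892). Both calls held without any 1 array. For 1dpiT against 0dpi the difference was -0.08 with a 95% interval of -0.28 to 0.13, and it was 0.03 on the poly-A scale and 0.01 without 0dpi replicate 1.

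**Figure D3:**
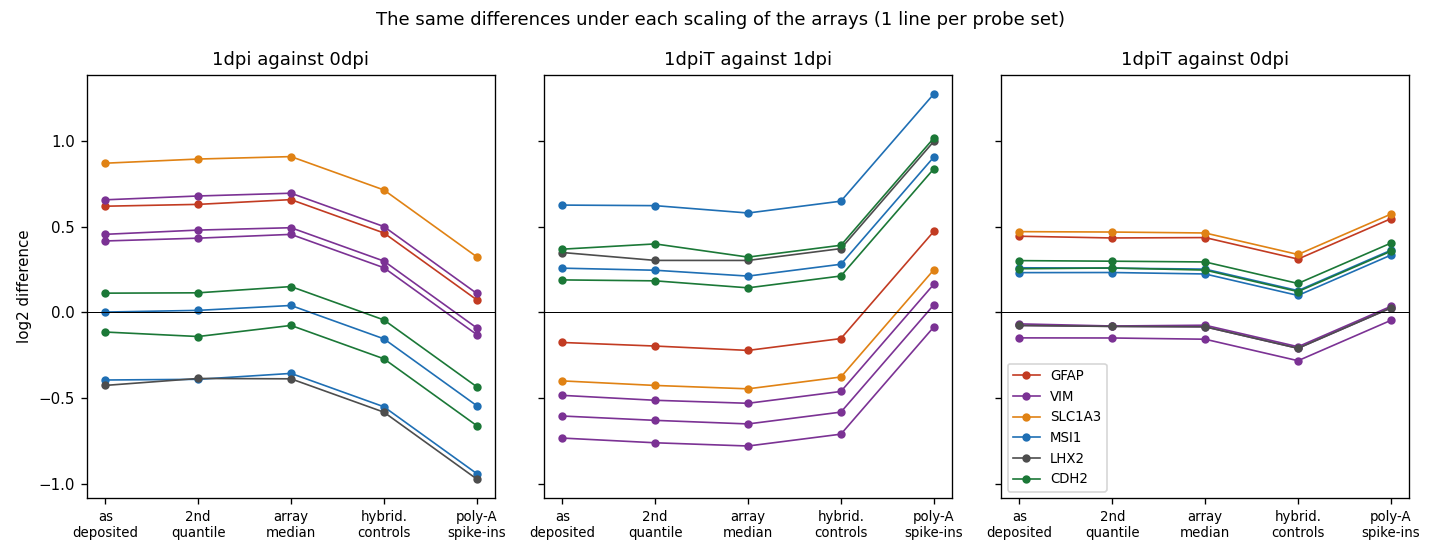
Log2 difference (vertical axis) of each of the 10 probe sets (lines, coloured by gene) under 5 scalings of the arrays (horizontal axis), in 1 panel per comparison. Equal poly-A signal moves every line by -0.55, 0.65 and 0.10, so GFAP, SLC1A3 and 2 of the 3 VIM probe sets cross 0 in 1dpiT against 1dpi. In 1dpiT against 0dpi the poly-A and hybridization controls differed by only -0.10 and 0.13. Lines starting there at or above 0.23 could therefore not cross 0 on those scales. On the scale of the hybridization controls 0 of the 10 probe sets are called in that comparison, each with an SE of 0.14. Of all 20035 probe sets, 46 are called higher and 527 lower there.

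Lists of markers of other cell types, each gene counted by its brightest probe set, moved in the same comparisons as the 6 genes. Sums of signals on the linear scale are given in the order 0dpi, 1dpi and 1dpiT, as deposited and then with arrays set to equal poly-A signal. The 6 genes summed to 11136 to 11718, 15306 to 15485 and 11251 to 11728, but VIM made up 81.3% to 86.1% of that sum, so it restates VIM and does not show the levels of GFAP, SLC1A3 or CDH2. On the poly-A scale the sums were 11347 to 11604, 10228 to 10903 and 11683 to 12791, with 1dpi the lowest.

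Sums of 12 of 13 listed skeletal muscle genes were 68785 to 70133, 103410 to 105522 and 68009 to 69186. As deposited they stood highest in 1dpi, the order of VIM, but on the poly-A scale that order was lost, at 69216 to 70372, 69937 to 72808 and 71442 to 75422. Sums of 11 of 11 fibroblast and matrix genes were 25220 to 26915, 49887 to 50625 and 24958 to 25766, and stood highest in 1dpi on the poly-A scale as well, at 24893 to 27537, 33064 to 35216 and 25916 to 28575. In 1dpi against 0dpi, where 25.3% of all genes were called higher, all 12 muscle genes and 9 of the 11 fibroblast genes were called higher. On the poly-A scale these were 8 muscle genes higher and 3 lower, and 9 fibroblast genes higher and 2 lower. Of all 8639 genes, 499 were higher and 7338 lower on that scale. In 1dpiT against 1dpi, where 26.1% of all genes were called lower, 12 muscle and 9 fibroblast genes were called lower, against 6 lower and 3 higher, and 8 lower and 2 higher, on the poly-A scale. Over all 8639 genes the poly-A counts were 466 lower and 7589 higher. Sums of 5 of 8 erythrocyte genes (1029 to 1064, 2334 to 2426 and 895 to 920) were highest in 1dpi on both scales. ALAS2 made up 37.7% to 57.9% of the erythrocyte sum. All 5 genes were called higher in 1dpi against 0dpi and lower in 1dpiT against 1dpi. On the poly-A scale 3 were higher and 1 lower, and 1 higher and 4 lower. Sums of 3 of 10 myelin genes (2999 to 3115, 4612 to 4892 and 2977 to 3084) were highest in 1dpi as deposited. On the poly-A scale the myelin sums of 1dpi and 1dpiT overlapped. MBP made up at least 72.4% of the myelin sum, so that sum mostly restates MBP. Of the 3 myelin genes, 2 were called higher and 1 lower (-1.01) in 1dpi against 0dpi. In 1dpiT against 1dpi, 1 was called higher (0.99) and 2 lower. On the poly-A scale the counts were 0 higher and 1 lower, and 1 higher and 0 lower, beside the poly-A counts over all genes given above.

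The neuronal list had the order of GFAP and SLC1A3 as deposited. Its 13 of 15 measured genes summed to 3181 to 3253, 5298 to 5386 and 3832 to 3867, and on the poly-A scale to 3140 to 3328, 3569 to 3730 and 3988 to 4250, with 1dpiT the highest. In 1dpiT against 0dpi, where 2.16% of all genes were called higher, 4 of the 13 were, namely the neurofilament genes NEFM (0.48 ± 0.06) and NEFL (0.29 ± 0.07), STMN2 (0.22 ± 0.05), a regulator of microtubules, and ELAVL4 (0.28 ± 0.07), a neuronal RNA-binding protein. This count depended on the scaling, with 2 on array medians, 0 on the hybridization controls and 7 on the poly-A scale. The count over all 8639 genes moved too, from 187 as deposited to 168, 10 and 684 on these scales. SYT1 and MAP2 lay at or below the highest negative control. The median difference of the list in 1dpiT against 1dpi was -0.23 as deposited and 0.42 on the poly-A scale.

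The remaining lists had sums that differed less between groups as deposited, though their genes went both ways. These were 8 of 10 epithelial genes (32659 to 33307, 29985 to 30097 and 31368 to 31685), 9 of 10 leukocyte genes (4353 to 4553, 4066 to 4104 and 3966 to 4185), 9 of 9 endothelial genes (1097 to 1122, 1150 to 1183 and 967 to 1007) and 8 of 8 notochord and cartilage genes (14261 to 14822, 13712 to 14021 and 13901 to 13984). On the poly-A scale all 4 stood lowest in 1dpi, at 19947 to 21111, 2720 to 2888, 762 to 821 and 9088 to 9722. VWF made up 50.5% to 57.8% of the endothelial sum. In 1dpiT against 0dpi, where 3.67% of all genes were called lower, 3 of the leukocyte genes were lower (CD74 at -1.09 ± 0.06, SPI1 at -0.41 ± 0.06 and CYBA at -0.24 ± 0.04). So were 3 epithelial genes (TGM1, DSC2 and EPCAM, -0.28 to -0.19), 5 muscle genes (MYBPC1, MYL2, TNNI1, MYL3 and TNNC1, -0.40 to -0.21), the endothelial genes LYVE1 (-0.31) and VWF (-0.26), and FN1 (-0.39), ALAS2 (-0.33) and COL9A1 (-0.17) of the fibroblast, erythrocyte and cartilage lists, while endothelial FLT1 was higher (0.27). On the poly-A scale 2 muscle, 2 leukocyte, 0 epithelial and 0 endothelial genes were called lower by limma in this comparison, against 161 of all 8639 genes. Called higher there were 0 muscle, 2 leukocyte, 0 epithelial and 1 endothelial genes, against 684 of all 8639. The part of these tissues in the marker values was not tested.

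The genes of related roles were grouped in 6 lists. The genes called in these lists are named, though not all of the filament list. Those outside the 3 of smallest p were added after their values were seen. In 1dpi against 0dpi, where 25.3% of the 8639 genes were called higher and 29.5% lower, neural stem cell transcription factors were called higher in 1 and lower in 3 of 13 measured genes (median 0.03 against -0.00 for all genes). HES1, an effector of Notch (-0.88 ± 0.08), EMX2 (-1.09 ± 0.08) and MEIS1 (-1.08 ± 0.11), a pair of homeodomain factors, fell. In 1dpiT against 1dpi, where 30.4% of genes were called higher and 26.1% lower, the same 3 genes were called higher (0.73 ± 0.08, 0.87 ± 0.08 and 1.22 ± 0.11) and 2 were lower (median -0.09). NFIA, a factor of glial fate, was the gene called higher in 1dpi (0.39 ± 0.13) and was lower in 1dpiT than in 1dpi (-0.36 ± 0.13), with NR2E1 (-0.13 ± 0.05), the orphan receptor of neural stem cells, and all of these reverse on the poly-A scale. In 1dpiT against 0dpi no gene of the list passed in limma, where 2.16% of all genes were called higher and 3.67% lower, and the 3 smallest p belonged to EMX2 (-0.22, adjusted p = 0.145), ZEB1 (-0.16, 0.170) and GLI3 (0.14, 0.251). The list medians turned to -0.52, 0.56 and 0.04 with arrays set to equal poly-A signal, and every list median named here moves by the same amounts. The list then had 0 genes called higher and 12 lower in 1dpi against 0dpi, and 13 higher and 0 lower in 1dpiT against 1dpi. Over all genes 6.37% and 94.2% of calls were then higher in these comparisons. Of the 8639 genes, 499 were higher and 7338 lower in the first, and 7589 higher and 466 lower in the second. These counts apply beside the poly-A counts of each list below.

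Genes of astroglial transport and metabolism, the company of SLC1A3, were called higher in 5 and lower in 1 of 12 cases in 1dpi against 0dpi (median 0.17), and lower in 5 and higher in 1 in 1dpiT against 1dpi (median -0.12). These counts turned on the poly-A scale, to 2 higher and 7 lower, and to 8 higher and 1 lower. The membrane protein GPM6B rose by 0.98 ± 0.06 and fell by 1.03 ± 0.06. SLC4A4, a sodium bicarbonate cotransporter, was 0.47 ± 0.07 higher in 1dpi than in 0dpi, which reverses on the poly-A scale, and the chaperone CLU fell by 0.74 ± 0.09 from 1dpi to 1dpiT. FABP7, a fatty acid-binding protein of radial glia (0.81 ± 0.12 and -0.75 ± 0.12), and MLC1, a membrane protein of astrocytes (0.88 ± 0.13 and -0.91 ± 0.13), moved both ways too. CLU was 0.58 ± 0.09 in the first comparison and SLC4A4 -0.33 ± 0.07 in the second, where the latter reverses on the poly-A scale. The exception was PTPRZ1, a receptor phosphatase of radial glia, at -0.76 ± 0.06 and 0.68 ± 0.06. None of the 12 was called in 1dpiT against 0dpi, where the values nearest to a call were those of CLU (-0.16), SLC4A4 (0.14) and PTPRZ1 (-0.07).

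Intermediate filament genes and their linkers, the company of GFAP and VIM, were called higher in 5 and lower in 3 of 12 cases in 1dpi against 0dpi (median 0.06) and higher in 3 and lower in 4 in 1dpiT against 1dpi (median -0.08). DES, the desmin of muscle, rose by 0.70 ± 0.04 from 0dpi to 1dpi and fell by 0.75 ± 0.04 from 1dpi to 1dpiT. DST, a linker of filaments to junctions, rose by 0.96 ± 0.07 and fell by 0.90 ± 0.07, and neurofilament NEFM was 0.71 ± 0.06 higher in 1dpi than in 0dpi. LMNB2 (-1.28 ± 0.10 and 1.31 ± 0.10) and LMNB1 (-0.64 ± 0.08 and 0.66 ± 0.08), a pair of nuclear lamins, were lower in 1dpi than in 0dpi and higher in 1dpiT than in 1dpi. The remaining gene of each of these counts is not named here. DSP, the desmoplakin of epithelia and heart, belongs to the epithelial list and not to this one, and moved the same way (-0.36 ± 0.06 and 0.29 ± 0.06). NEFL (0.39 ± 0.07) and lamin LMNA (0.22 ± 0.07) were called higher in 1dpi, and LMNA (-0.42 ± 0.07) and NEFM (-0.23 ± 0.06) lower in 1dpiT than in 1dpi, all of which reverse on the poly-A scale. A dimmer probe set of DES (-1.11 and 0.77) and a pair of dimmer probe sets of DST (-1.32 and 1.49, -1.02 and 1.05) were called in the opposite direction in both comparisons. NEFM and NEFL were the 2 genes of the list called higher in 1dpiT against 0dpi, and LMNA (-0.20, adjusted p = 0.138) was next by p. On the scale of the hybridization controls 0 genes of the list were called higher, against 10 of all 8639. With equal poly-A signal the list had 3 higher and 9 lower in 1dpi against 0dpi, and 10 higher and 1 lower in 1dpiT against 1dpi.

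Cadherin junction partners, the company of CDH2, were called higher in 2 and lower in 5 of 12 cases in 1dpi against 0dpi (median -0.06) and higher in 4 and lower in 2 in 1dpiT against 1dpi (median 0.05). CDH11, a mesenchymal cadherin, was 0.98 ± 0.07 higher in 1dpi than in 0dpi and fell by 0.82 ± 0.07 from 1dpi to 1dpiT. CDH4, or R-cadherin, was 0.89 ± 0.09 higher in 1dpi than in 0dpi and fell by 1.24 ± 0.09 from 1dpi to 1dpiT. The junction plaque proteins JUP (-0.52 ± 0.05) and PKP4 (-0.64 ± 0.05) were lower in 1dpi than in 0dpi, and both were higher in 1dpiT than in 1dpi (0.43 ± 0.05 and 0.71 ± 0.05). The epithelial cadherin CDH1 (-0.58 ± 0.06 and 0.56 ± 0.06) and the catenin CTNNA1 (-0.42 ± 0.05 and 0.40 ± 0.05) moved the same way, and the catenin CTNND1 was called lower in 1dpi (-0.17 ± 0.05). None was called in 1dpiT against 0dpi, with CDH4 (-0.35, adjusted p = 0.0637), CDH11 (0.16) and IQGAP1 (-0.13) nearest. Equal poly-A signal gave this list 2 higher and 10 lower in 1dpi against 0dpi, and 10 higher and 1 lower in 1dpiT against 1dpi.

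RNA-binding proteins of stem cells with NUMB, the company of MSI1, were called higher in 1 and lower in 5 of 11 cases in 1dpi against 0dpi (median -0.05), and higher in 4 and lower in 1 in 1dpiT against 1dpi (median 0.07). PTBP1, which represses neuronal splicing (-0.84 ± 0.06 and 0.90 ± 0.06), ELAVL1, which stabilises messages (-0.999 ± 0.09 and 1.15 ± 0.09), and IGF2BP3, of embryonic cells (-1.21 ± 0.12 and 1.35 ± 0.12), led both. Its relative IGF2BP1 (-0.97 ± 0.14 and 0.94 ± 0.14) was called in both as well, and QKI (-0.29 ± 0.10) in the first. MSI2, the paralog of MSI1, went the other way (0.41 ± 0.10 and -0.45 ± 0.10), and both of its directions reverse on the poly-A scale. NUMB was not called in any comparison. None was called in 1dpiT against 0dpi, where QKI (-0.22), ELAVL1 (0.15) and PTBP2 (0.11) had the smallest p. With equal poly-A signal 0 genes were higher and 10 lower in 1dpi against 0dpi, and 10 higher and 0 lower in 1dpiT against 1dpi.

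LIM homeodomain factors and their cofactors, the company of LHX2, were called higher in 5 and lower in 3 of 12 cases in 1dpi against 0dpi (median 0.03), and higher in 4 and lower in 1 in 1dpiT against 1dpi (median -0.03). ISL1, which specifies motor neurons, was 0.48 ± 0.06 higher in 1dpi than in 0dpi, which reverses on the poly-A scale. It was also the gene of this list called higher in 1dpiT than in 0dpi (0.37 ± 0.06, adjusted p = 0.00483). On the scale of the hybridization controls 0 genes of the list were called higher there, against 10 of all 8639. LMO3 (0.29) and SSBP2 (-0.33) were next by p, with no call. SSBP2, a partner of the LIM cofactor complex, fell by 0.66 ± 0.11 from 0dpi to 1dpi. LMO4, a LIM-only protein, fell by 0.53 ± 0.08 from 0dpi to 1dpi and was 0.61 ± 0.08 higher in 1dpiT than in 1dpi, but its dimmer probe set was called the opposite way in both (0.30 and -0.21). LMX1B, a factor of dorsal neurons, was at -0.39 ± 0.08 and 0.41 ± 0.08, and the cofactor genes SSBP2 (0.33 ± 0.11) and SSBP3 (0.20 ± 0.06) were called higher in 1dpiT than in 1dpi. LMO1 (0.45 ± 0.14), LMO3 (0.47 ± 0.10), LDB1 (0.16 ± 0.05) and LDB2 (0.46 ± 0.09) were called higher in 1dpi than in 0dpi, and LDB2 fell by 0.34 ± 0.09 from 1dpi to 1dpiT, all of which reverse on the poly-A scale. The counts of the list there were 0 higher and 8 lower in 1dpi against 0dpi, and 12 higher and 0 lower in 1dpiT against 1dpi.

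**Figure D4:**
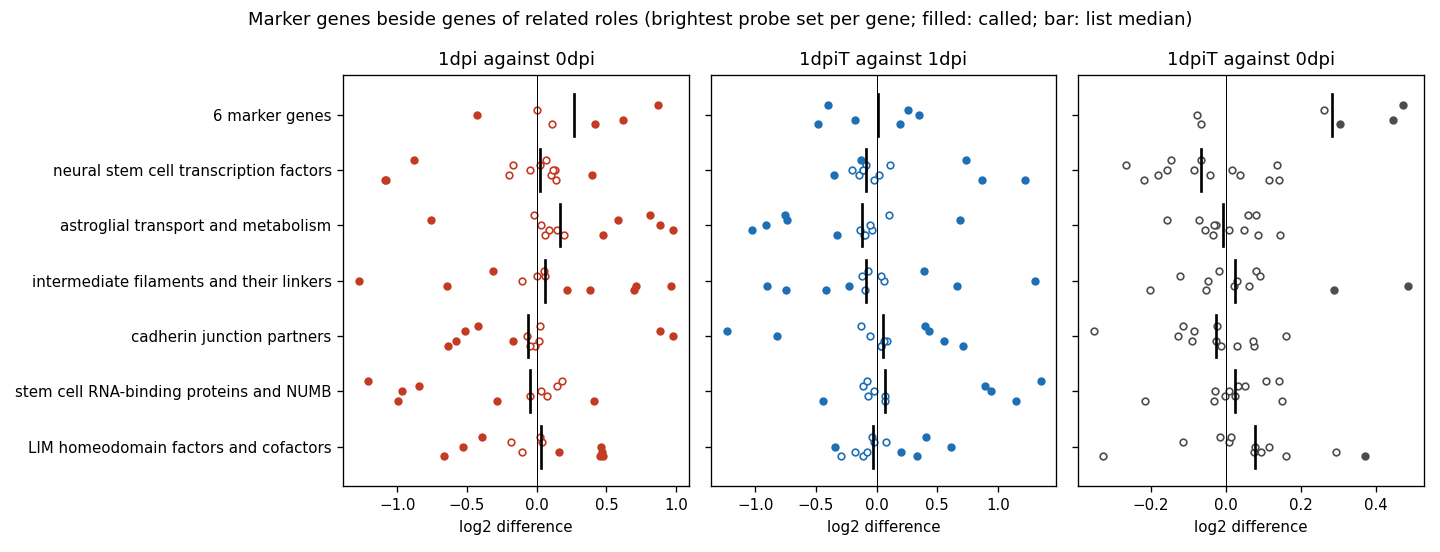
Log2 difference (horizontal axis, with its own range in the panel of 1dpiT against 0dpi) of the 6 marker genes and of the genes in 6 lists of related roles (rows), by the brightest probe set of each gene, filled where called, with the list median as a bar, in 1 panel per comparison. In 1dpiT against 0dpi 3 of the 6 marker genes are filled, and 2 filament genes and 1 LIM gene of the lists; with arrays set to equal poly-A signal all points move by -0.55, 0.65 and 0.10, so most points of the first panel would be below 0 and most of the second above it.

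The probe sets of the 6 genes also differed in how they followed each other over the 9 arrays, which share the 3 groups, so these correlations mostly restate the group means. GFAP and SLC1A3 correlated at 0.96, and GFAP and the brightest VIM probe set at 0.62. The 3 VIM probe sets correlated among themselves at 0.88 to 0.96, the MSI1 pair at 0.64 and the CDH2 pair at 0.66. The brighter probe sets of MSI1 and CDH2 correlated at 0.90, and LHX2 with the brightest VIM probe set at -0.87.

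Among 10399 other probe sets with 1 symbol and a mean above the negative controls, the values of GFAP over the 9 arrays were followed most closely by UQCRH (r = 0.98), a subunit of the respiratory chain, C3 (0.98), the central complement protein, and CDH17 (0.97), an intestinal cadherin. CDH17 (0.99), IMMT (0.99), a protein of mitochondrial cristae, and ATP6V0E2 (0.98), a subunit of the proton pump, were closest to SLC1A3. An r over 0.95 was reached by 15 probe sets for GFAP and by 41 for SLC1A3. For the brightest VIM probe set it was reached by 785 (7.55%), led by ADAMTS13 (0.998), OLFML2B (0.996) and ALAS2 (0.995), the haem synthesis enzyme of red cells. The order of groups in VIM was thus a common one on these arrays. VIM axo09108-f_at was led by SGCA (0.98), COMMD7 (0.98) and PINX1 (0.98), and axo09110-f_at by TP53I11 (0.99), MAPKAP1 (0.99) and CCDC88A (0.99).

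For LHX2 the closest were VASP (0.97), PIGN (0.97) and TXNL1 (0.97), with 12 probe sets over 0.95. No probe set exceeded 0.95 for the brighter MSI1 probe set, led by CTCF (0.93), PRCC (0.93) and UBE2V2 (0.93), or for the CDH2 probe sets, led by ISYNA1 (0.95), CHPF2 (0.94) and UBE2V2 (0.93) for the brighter and by EPS15 (0.95), DNAH9 (0.94), an axonemal dynein of motile cilia, and ARID3B (0.94) for the dimmer. The dimmer MSI1 probe set was followed by SEC11C (0.98), PDCL3 (0.97) and MCPH1 (0.97).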

How the data were processed

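Total RNA was extracted with TRIzol, labelled with the GeneChip 3'IVT Express kit and hybridized to a custom axolotl array. The authors used RMA in Affymetrix Expression Console (versions not given in the sources used here) to make the deposited log2 values. RMA corrects background, gives all arrays 1 distribution and summarises each probe set. The values ran from 2.65 to 14.6 with 0 missing. Of 20080 probe sets, 45 controls were left out (24 poly-A, 18 hybridization and 3 negative). Symbols came from the annotation of the platform (8639 symbols).

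Groups were compared with limma 3.58.1 in R 4.3.3, with 1 coefficient per group over all 9 arrays, no filter and 2-sided tests. The Benjamini-Hochberg adjustment covered all 20035 probe sets. The methods of the study name no test and used no adjustment. The spread is between pools of 10 animals, not between animals, and the number of arrays limits the precision. The members and lists were chosen with earlier results of these data known. All 6 genes were named, with the 3 closest genes by Pearson's r and up to 3 genes of smallest p per list and comparison, each gene by its brightest probe set, whose dimmer probe sets are given where they were called the opposite way. Alternatives were trend and robust options, a replicate block, leaving out the dimmest 50%, 4 other scalings, 2-group fits, averaged probe sets, unadjusted p and leaving out each array. The sums on the poly-A scale and the bound for the dimmer CDH2 probe set were added after seeing the data.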

Additional observations from a re-analysis of the deposited data

How the results depend on the processing

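Of 552 log2 differences recomputed for the 10 probe sets, 502 kept their direction and their side of the threshold, 21 lost a call, 10 gained one and 19 changed sign. Trend and robust options, a replicate block, 2-group fits, leaving out the dimmest 50% and unadjusted p cannot change a log2 difference. Neither can leaving out an array of the group that is not part of the comparison. The direction was fixed in all these settings, and only the call could change. Of the 10 gained calls, 4 came from the unadjusted p. The poly-A scale had 11 of the sign changes and made the counts 1 higher and 5 lower for 1dpi against 0dpi, 8 and 0 for 1dpiT against 1dpi, and 5 higher for 1dpiT against 0dpi. Over all probe sets, 6.95%, 94.0% and 82.4% of calls would then be higher, where 46.7%, 53.7% and 40.3% were as deposited. On the scale of the hybridization controls the higher counts were 3, 3 and 0, and over all probe sets 27.0%, 58.2% and 8.03% of calls were higher. Centring on array medians ended the call of CDH2 in 1dpiT against 1dpi (0.14). Counts of 3 higher (1dpiT against 1dpi) and 1 lower (1dpi against 0dpi) without the dimmest 50% reflect the loss of the dimmer CDH2 and MSI1 probe sets, and averaging left 6 genes, with 3 higher and 1 lower, 3 and 3. For 1dpiT against 0dpi there were 5 higher with trend and robust options, and at an unadjusted p below 0.05 there were 6 higher and 1 lower. With at least 2-fold required as well, 0 were left in each comparison. Deviations of like replicate numbers correlated at -0.22 to 0.23, and at 0.07 to 0.23 for 0dpi with 1dpi. With 3 arrays per group this does not settle whether the numbers pair the arrays. With a replicate block the counts were 5 higher and 2 lower, 5 and 5, and 3 and 0, as without it. Leaving out 1 array gave 2 to 4 higher for 1dpiT against 0dpi and 3 to 5 for 1dpiT against 1dpi, and the other counts did not change.

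The sign changes on the poly-A scale were those of the brighter CDH2 (-0.43) and MSI1 (-0.54) probe sets and of VIM axo20695-f_s_at (-0.13) and axo09110-f_at (-0.090) in 1dpi against 0dpi, of GFAP (0.47), SLC1A3 (0.25), VIM axo20695-f_s_at (0.16) and axo09110-f_at (0.044) in 1dpiT against 1dpi, and of LHX2 (0.026), VIM axo09108-f_at (0.026) and axo20695-f_s_at (0.035) in 1dpiT against 0dpi. These follow from the shift of all values by -0.55, 0.65 and 0.10. In 1dpi against 0dpi the brighter MSI1 probe set, near 0 as deposited, was -0.15 on the hybridization scale, -0.20 averaged and -0.083 to 0.056 with 1 array left out, and the brighter CDH2 probe set was -0.043 and -0.00085. In 1dpiT against 0dpi, LHX2 ran from -0.15 to 0.013 and VIM axo09108-f_at from -0.14 to 0.041 with 1 array left out. The 2 sign changes on the hybridization scale follow in the same way from the 0.16 by which those controls differed. The 2 on averaging follow from the second probe sets of MSI1 (-0.39) and CDH2 (-0.11). The 8 calls lost on the hybridization scale came with an SE of 0.14. The cause of the remaining changes was not tested.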

Other observations

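The progenitor factors PAX6 and SOX9, chosen after their values were seen, were not called by limma in any comparison as deposited. On the poly-A scale all 13 measured genes of the transcription factor list, which holds both, were called higher in 1dpiT than in 1dpi. So were 7589 of all 8639 genes. In 1dpi against 0dpi 12 of the 13 were called lower on that scale, as were 7338 of all 8639 genes. PAX6 differed by 0.14, -0.02 and 0.12 (SE 0.06) and SOX9 by -0.20, 0.02 and -0.18 (SE 0.10), in the order 1dpi against 0dpi, 1dpiT against 1dpi and 1dpiT against 0dpi, and with arrays set to equal poly-A signal these values would move by -0.55, 0.65 and 0.10. FABP7, also chosen in this way, had means of 7.85 in 0dpi, 8.66 in 1dpi and 7.91 in 1dpiT as deposited, and its difference between 1dpiT and 0dpi was 0.06 ± 0.12 (adjusted p = 0.870).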
